A study of Mus musculus with 4 samples.

Results

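Amino acid transporters of the Slc1, Slc3, Slc7, Slc36, Slc38 and Slc43 families were examined in regenerating mouse liver. Members were taken by gene symbol, as the rows of the deposited table that carry a family name and a number, with Slc1a2 and Slc7a11 left out. This choice was made with earlier results of these data known. The rule found 42 of the 24421 rows. Of these, 40 are transporter genes or close relatives, and 2 (Slc7a6os and Slc36a1os) are named for the strand opposite a transporter and are not transporters. They are described apart and enter no count of transporters.

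The samples were livers of mice after hepatectomy, the surgical removal of part of the liver. The control group, 2 libraries, had been given fibrin gel without cells, and the gelADSC group, also 2 libraries, had been given the same kind of gel with ADSC (adipose-derived stem cells) in it. Hepatectomy and gel were common to both groups, so the comparison asks what accompanied the cells. Strain, age, sex, source of the ADSC, time after surgery and any pooling of animals are unknown here, and nothing says that the libraries of a group came from separate animals, so the p-values may measure a technical spread. Libraries are named by the number in their column, 1 and 3 for control and 2 and 3 for gelADSC. The sample titles number each group 1 and 2, so a column is known by its group and not by its sample.

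Amino acids cross the hepatocyte membrane on carriers of several families. Slc38 carriers couple glutamine and small neutral amino acids to sodium. Slc1 carriers move glutamate or small neutral amino acids. Most exchangers of the Slc7 light chain group reach the plasma membrane only when joined by a disulfide bond to a heavy chain. The heavy chains are Slc3a1 (rBAT) and Slc3a2 (4F2hc, CD98). The cationic carriers of the Slc7 family work without a heavy chain. In the liver, periportal hepatocytes break down glutamine for the urea cycle and those next to the central vein make it again, and the carriers supply both.

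The 2 heavy chains moved in opposite directions, and the sequences upstream of their genes are shown for that reason, with that of the light chain gene Slc7a6. Each is the RefSeq window from 250 bases before to 50 bases after the start site, in build GRCm38.p6, printed 5′ to 3′ on the gene's strand. Capitals mark matches to the motifs named next.
Slc3a1, chr17:85028097-85028396, plus strand: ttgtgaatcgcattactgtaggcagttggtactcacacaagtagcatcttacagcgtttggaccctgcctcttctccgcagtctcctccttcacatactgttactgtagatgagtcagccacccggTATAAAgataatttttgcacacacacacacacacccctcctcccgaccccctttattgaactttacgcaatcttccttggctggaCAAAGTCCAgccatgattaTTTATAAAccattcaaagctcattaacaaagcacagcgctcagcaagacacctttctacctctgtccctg
Slc3a2, chr19:8713848-8714147, minus strand: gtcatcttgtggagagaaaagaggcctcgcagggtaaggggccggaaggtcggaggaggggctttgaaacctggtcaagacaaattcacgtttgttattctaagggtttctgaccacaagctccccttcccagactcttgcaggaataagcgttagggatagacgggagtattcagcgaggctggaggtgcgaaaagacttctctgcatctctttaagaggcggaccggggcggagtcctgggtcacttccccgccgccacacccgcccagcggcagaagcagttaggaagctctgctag
Slc7a6, chr8:106168604-106168903, plus strand: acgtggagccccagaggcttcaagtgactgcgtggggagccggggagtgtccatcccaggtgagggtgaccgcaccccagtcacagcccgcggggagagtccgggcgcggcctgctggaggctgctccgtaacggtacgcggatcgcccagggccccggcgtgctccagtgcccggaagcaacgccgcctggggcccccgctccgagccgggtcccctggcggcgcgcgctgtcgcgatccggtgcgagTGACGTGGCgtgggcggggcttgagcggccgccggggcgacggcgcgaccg

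A total of 7 motifs, picked with the expression results known, were searched on both strands of the windows of 29 transporter genes that have an entry. The HNF4 site, CAAAGTCCA, lay in the Slc3a1 window alone, starting 39 bases before the start site, against 0.475% of all 32851 windows. The same window held TATAAA (13.6% of all windows) around position -18 and at -124. The antioxidant response element core, TGACNNNGC (12.4%), overlapped the start site in the Slc7a6 window shown and lay at -68 in a second window of that gene. It was also present at Slc36a1, Slc38a2, Slc43a1 and Slc7a1, making 5 of the 29 genes. The Slc3a2 window held none of the 7. The composite element of ATF4 and C/EBP proteins, TGATGNAA (3.97%), occurred at Slc1a4 and Slc7a7. TGACGTCA (1.79%) occurred at 1 of the 29 genes, CACGTG (7.15%) at 7, CCAAT (37.4%) at 10 and TATAAA at 6. Several genes have more than 1 window, so counts of genes are to be read beside shares of genes. Of all genes with an entry, 14.0% held TGACNNNGC, 15.7% TATAAA, 4.51% TGATGNAA, 2.03% TGACGTCA, 0.555% CAAAGTCCA, 8.09% CACGTG and 41.1% CCAAT. GC content was 46.3% at Slc3a1, 56.0% at Slc3a2 and 75.7% at Slc7a6, with a median of 52.7% over all windows. A match says only that the letters are present.

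Of the 40 transporters, 21 had a mean of at least 1 FPKM (fragments normalised to gene length and to sequencing depth) over the 4 libraries and were tested. By limma across all 11070 genes at that level, 5 were higher and 2 lower in gelADSC at an adjusted p under 0.05. The higher ones were Slc3a1, Slc38a3, Slc38a4, Slc36a4 and Slc43a1, and the lower ones Slc7a6 and Slc3a2. In percent, 23.8% of the tested transporters were called higher, against 6.92% of all tested genes, and 9.52% lower, against 17.5%. Of the called genes, Slc36a4 (control mean 0.960 FPKM) and Slc7a6 (gelADSC mean 0.268 FPKM) reached the level for testing only through the group where they read higher. Their place in these shares thus depended on that difference. Groups did not overlap for 6 transporters in the higher direction (19.2% of all genes) and for 11 in the lower direction (50.5%). The median log2 change was -0.24 for the transporters and -0.25 for all genes, and 61.9% of the transporters and 68.8% of all tested genes had a negative change, so the transporters as a whole lay close to the table. Scaling by the median of ratios takes that common shift out, and the calls over all genes then went from 766 higher and 1936 lower to 952 and 948, and those of the transporters to 4 and 1. Leaving out control library 1 gave 1 higher and 0 lower transporters, and calls over all genes then fell to 303 higher and 331 lower of 10979 (2.76% and 3.01%). Leaving out control library 3 gave 3 and 3, and leaving out gelADSC library 2 or library 3 gave 4 and 2 or 3 and 2. Changes are differences of mean log2(FPKM + 1), gelADSC minus control, which understate those of low genes. In bulk liver RNA, fewer cells of a type and less RNA per cell cannot be told apart.

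**Figure D1:**
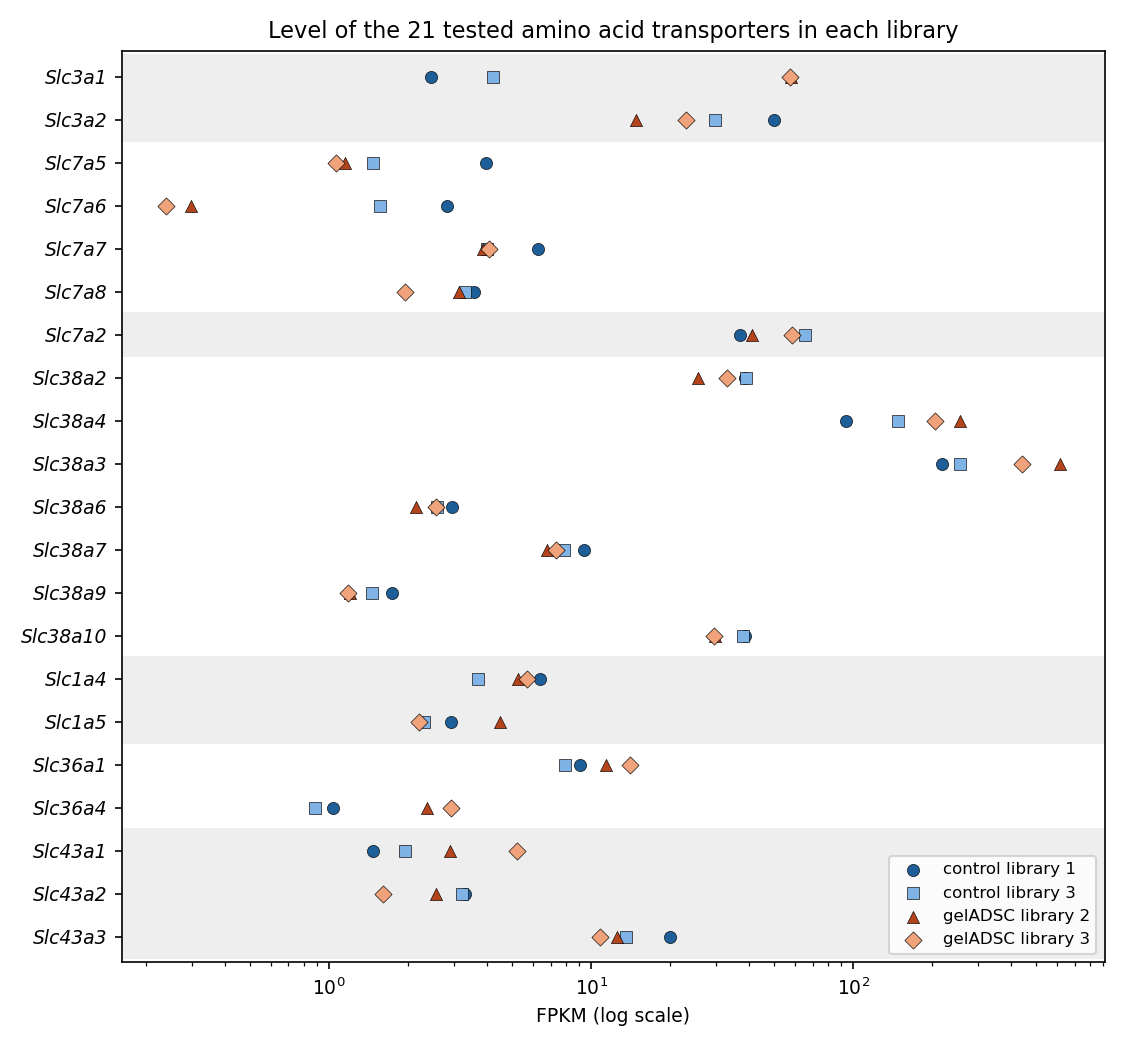
FPKM on a log axis for each of the 21 tested transporters, 1 point per library, with shaded bands separating the family groups in the order heavy chains, light chains, cationic carriers, Slc38, Slc1, Slc36 and Slc43. Slc38a3 and Slc38a4 lie highest in all 4 libraries, and the widest gaps between the groups are those of Slc3a1 and Slc7a6.

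**Figure D2:**
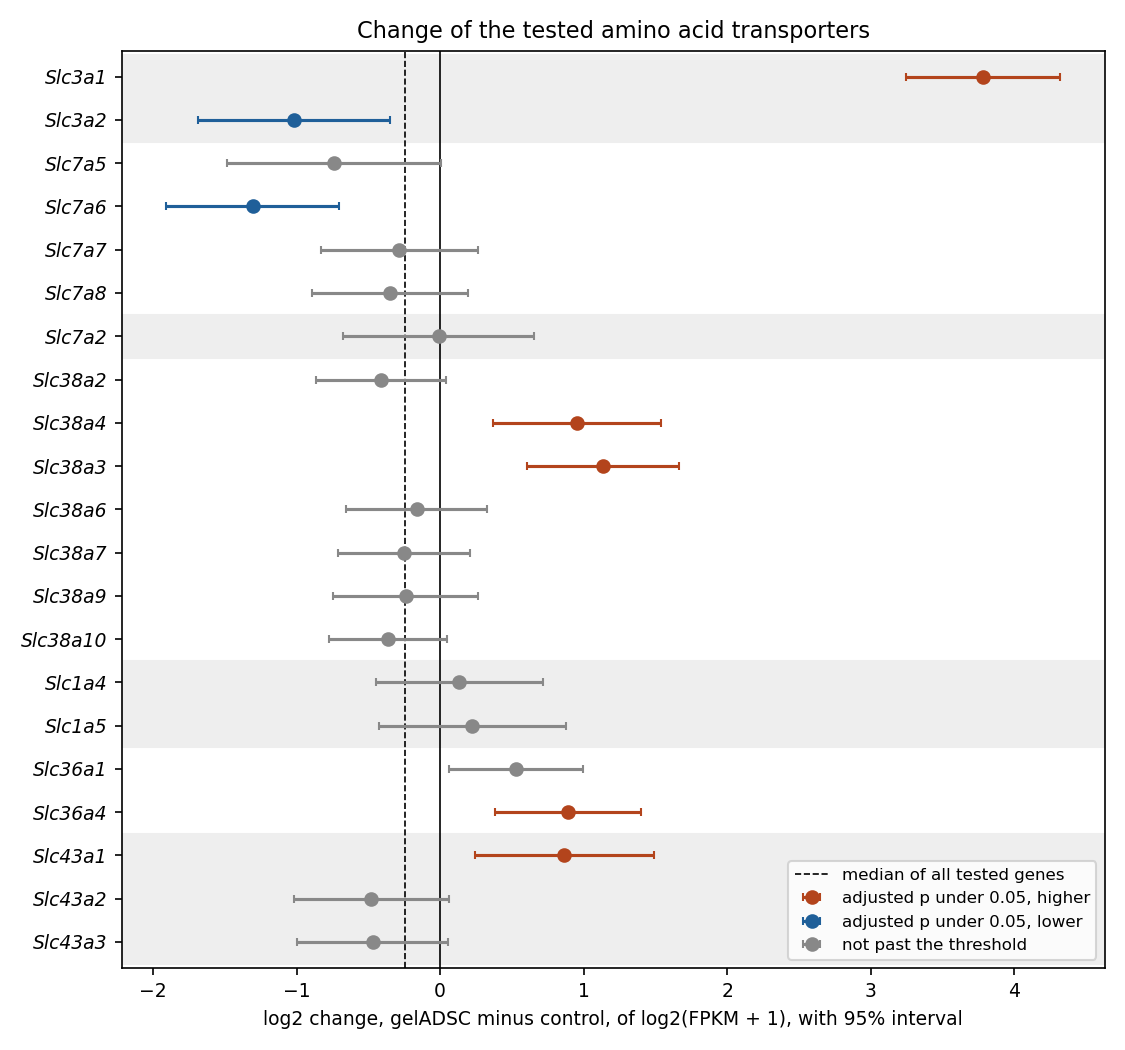
Log2 change with its 95% interval from limma for the same 21 genes in the same order, coloured by whether the adjusted p was under 0.05, with a dashed line at the median of all tested genes (-0.25). Slc3a1, at 3.78, stands apart from the rest, which lie between -1.31 and 1.14.

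Among the heavy chains, Slc3a1 rose. It read 2.46 and 4.22 FPKM in control libraries 1 and 3 and 57.7 and 57.3 FPKM in gelADSC libraries 2 and 3. Both gelADSC values lay far above both controls and were almost equal to each other. The mean was 17.2 times that of the controls (log2 change 3.78, SE 0.23, limma adjusted p = 5.82e-05), and only 21 of 11070 genes had a larger increase, which places it at rank 22. The call held under all 12 alternative settings, with log2 changes from 2.91 to 4.12. In RefSeq the gene overlaps Prepl, a peptidase-like gene, and whether the authors counted by strand is unknown here. Prepl read 7.32 and 5.84 FPKM in the controls against 11.4 and 13.6 in gelADSC (log2 change 0.83, limma adjusted p = 0.0243). That put Prepl above Slc3a1 in the controls and below Slc3a1 in gelADSC. The same limit holds for other members that overlap a RefSeq gene, among them the called Slc38a4 (Gm32840) and Slc43a1 (D930003E18Rik). Slc7a7 (Oxa1l) and Slc38a6 (Trmt5) overlap one too.

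The light chain known to pair with Slc3a1 in kidney and intestine, Slc7a9, was almost unread. Its values were 0.0253 and 0 FPKM in the controls against 0.0207 and 0 in gelADSC, which the steps of the values put at 1, 0, 1 and 0 fragments. Slc7a13, another partner of Slc3a1 in kidney, was listed at 0 in all 4 libraries. A listed 0 need not mean that the transcript was absent, since the 6 haemoglobin genes looked for, which have near-identical copies, and Amd1, of polyamine synthesis, were also listed at 0 in all libraries.

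Slc3a2, the heavy chain of most light chains, fell. It read 49.9 and 29.7 FPKM in control libraries 1 and 3 and 14.8 and 23.1 FPKM in gelADSC libraries 2 and 3. The groups did not overlap, but control library 3 and gelADSC library 3 lay close together. The control mean was 2.1 times the gelADSC mean (log2 change -1.02, SE 0.29, limma adjusted p = 0.0372). The call was lost with median of ratios scaling (adjusted p = 0.108), with quantile normalization (0.140), with no filter (0.128), and when control library 1 (0.259) or gelADSC library 2 (0.113) was left out. The ratio of Slc3a2 to Slc3a1 was 20.3 and 7.04 in the controls and 0.257 and 0.403 in gelADSC, so the more abundant heavy chain transcript was Slc3a2 in both control libraries and Slc3a1 in both gelADSC libraries.

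Of the 9 light chains, 4 were tested and all 4 had negative changes, as did 68.8% of all tested genes, with 1 of them called. Slc7a6 (y+LAT2), which exchanges arginine for glutamine and sodium, fell. It read 2.83 and 1.57 FPKM in the controls against 0.297 and 0.240 in gelADSC. Both gelADSC values lay far below the lower control. The control mean was 8.20 times the gelADSC mean (log2 change -1.31, SE 0.26, limma adjusted p = 0.0101), a change that the added 1 compresses at such levels. With a pseudocount of 0.1 the log2 change was -2.59 and with 5 it was -0.44, and the call held in all 10 alternatives in which the gene was tested. It passed the filter only through the controls, and without control library 1 it fell under it. The steps put its fewest possible fragments at 210 and 106 in the controls and 27 and 18 in gelADSC.

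The next gene along the chromosome, Slc7a6os, on the opposite strand, was not called. It read 13.5 and 12.9 FPKM in the controls against 10.7 and 10.9 in gelADSC (log2 change -0.26, adjusted p = 0.324). Its sign turned with median of ratios scaling or quantile normalization. The genes do not overlap in RefSeq.

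Slc7a5 (LAT1), the exchanger of large neutral amino acids, read 3.97 and 1.48 FPKM in the controls against 1.15 and 1.06 in gelADSC. Control library 1 stood high and the other 3 lay within a narrow range. The change was not called (log2 change -0.74, 95% interval -1.48 to 0.01, limma adjusted p = 0.129), and without control library 3 it was (0.0313). Slc7a7 (y+LAT1), an exporter of cationic amino acids, read 6.29 and 4.01 FPKM in the controls against 3.88 and 4.06 in gelADSC, with overlapping groups. Slc7a8 (LAT2), another neutral exchanger, read 3.58 and 3.30 FPKM against 3.13 and 1.94 FPKM. Neither was called (adjusted p = 0.406 and 0.306). The remaining light chain relatives were Slc7a10, a carrier of small neutral amino acids, with at most 0.0841 FPKM in any library, Slc7a15 with at most 0.110 FPKM, and Slc7a12, listed at 0 throughout.

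Light chain transcripts summed to 16.8 and 10.4 FPKM in the controls and to 8.67 and 7.38 FPKM in gelADSC. Heavy chain transcripts summed to 52.4 and 33.9 FPKM in the controls and to 72.6 and 80.4 FPKM in gelADSC. The first sum was lower and the second higher in gelADSC, without overlap, and these sums were not tested.

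The cationic carriers were represented mainly by Slc7a2 (CAT2), the arginine and lysine carrier of hepatocytes. It read 37.1 and 65.4 FPKM in the controls against 41.2 and 58.4 in gelADSC. The libraries of each group differed more than the groups did (log2 change -0.01, 95% interval -0.67 to 0.66, limma adjusted p = 0.986). Slc7a1 (CAT1), the widely expressed cationic carrier, had a mean of 0.867 FPKM and was not tested. It read 1.91 and 0.778 FPKM in the controls against 0.453 and 0.322 in gelADSC, without overlap, and control library 1 alone reached 1 FPKM. With no filter its log2 change was -0.72 (adjusted p = 0.155). Slc7a4, a relative with no settled transport function, read 0.606 and 0.513 FPKM against 0.355 and 0.307 FPKM, also without overlap. Slc7a3 (CAT3) lay between 0.0822 and 0.119 FPKM, and Slc7a14 gave 0.00561 FPKM in gelADSC library 3 and 0 in the others.

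Slc38 carriers made up most of the transporter transcript. System N carriers move glutamine, asparagine and histidine with sodium against a proton, in either direction, and system A carriers take up small neutral amino acids. Slc38a3 (SNAT3), the system N carrier of hepatocytes, rose. It read 218 and 256 FPKM in the controls against 615 and 442 in gelADSC. Both gelADSC libraries lay above both controls, with library 2 the higher. The mean was 2.23 times that of the controls (log2 change 1.14, SE 0.23, limma adjusted p = 0.0106). The call was lost without control library 1 (0.121) and with no filter (0.0586).

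Slc38a4 (SNAT4), the system A carrier most typical of liver, rose as well. It read 93.6 and 149 FPKM in the controls against 256 and 205 in gelADSC. The groups did not overlap, and control library 3 lay nearer to gelADSC than control library 1 did. The mean was 1.91 times that of the controls (log2 change 0.95, SE 0.26, limma adjusted p = 0.030). Leaving out control library 1 (0.196) or gelADSC library 2 (0.0551) ended the call, as did median of ratios scaling (0.0775), quantile normalization (0.0812) and the absence of a filter (0.102). In each of these the change stayed positive, from 0.62 to 1.24.

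The neighbouring system A gene Slc38a2 (SNAT2), known for induction when amino acids are scarce, was not called. It read 38.6 and 39.1 FPKM in the controls against 25.5 and 32.9 in gelADSC (log2 change -0.41, 95% interval -0.86 to 0.04, limma adjusted p = 0.160). Slc38a1 (SNAT1), the third member of this cluster, lay between 0.207 and 0.616 FPKM with overlapping groups.

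None of the 4 other tested Slc38 carriers, which include those of lysosomes, was called. Slc38a7 (SNAT7), which exports glutamine from lysosomes, read 9.37 and 7.86 FPKM in the controls against 6.77 and 7.35 in gelADSC. Slc38a9 (SNAT9), a lysosomal arginine sensor that signals to mTORC1, read 1.73 and 1.46 FPKM against 1.20 and 1.19 FPKM. Slc38a10 read 38.8 and 37.8 FPKM against 29.6 and 29.5 FPKM, and Slc38a6 read 2.93 and 2.58 FPKM against 2.15 and 2.57 FPKM. In all 4 genes gelADSC was lower without overlap, as in 50.5% of all tested genes. The limma adjusted p ran from 0.165 for Slc38a10 to 0.605 for Slc38a6. The log2 changes of these 4 genes, from -0.36 to -0.16, lay around the median of all genes. Slc38a11 was under the filter, with 0.0625 and 0.138 FPKM in the controls against 0.255 and 0.278 in gelADSC, values of few fragments (at least 2, 4, 10 and 9). Slc38a5 (SNAT5), a further system N carrier, and Slc38a8 had at most 0.0296 and 0.0211 FPKM.

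All transporters together summed to 557 and 639 FPKM in control libraries 1 and 3 and to 1102 and 910 FPKM in gelADSC libraries 2 and 3. Slc38a3 and Slc38a4 made up 55.9% and 63.4% of that sum in the controls and 79.0% and 71.1% in gelADSC. Without that pair the sum was 246 and 234 FPKM in the controls against 231 and 263 in gelADSC, with overlapping groups. The higher total in gelADSC was thus carried by these 2 genes.

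**Figure D3:**
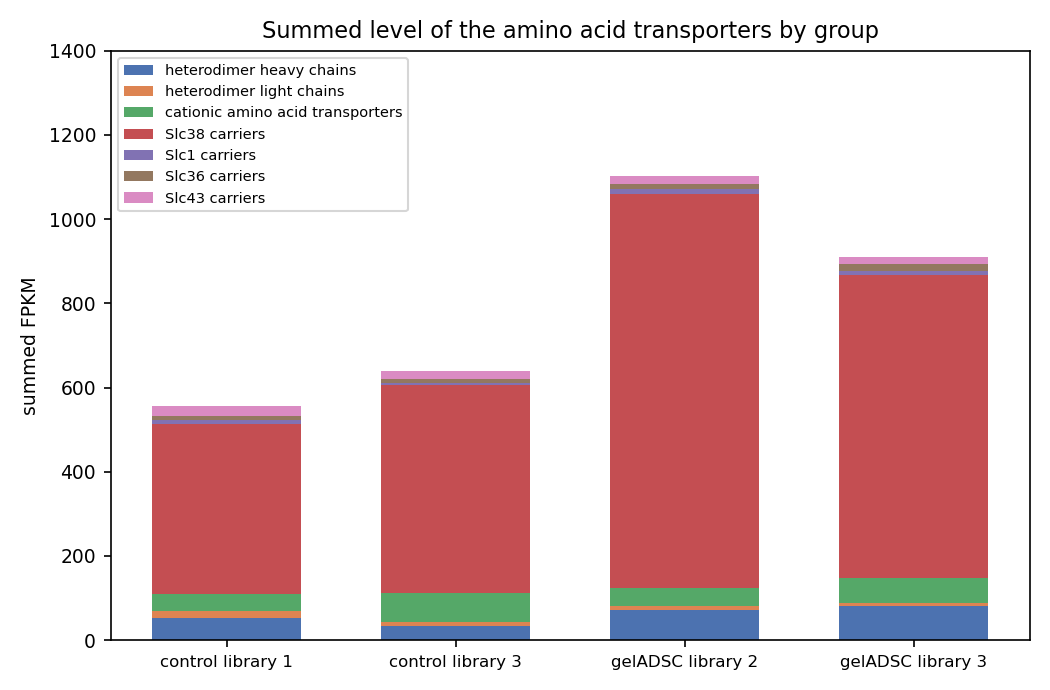
Summed FPKM of the 40 transporters in each library, stacked by family group, on an axis from 0. The totals are 557 and 639 FPKM in the controls against 1102 and 910 in gelADSC, and the Slc38 segment, 72.4% and 77.3% of the total in the controls and 85.0% and 79.2% in gelADSC, takes up most of each bar.

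Slc1 carriers of neutral amino acids differed by less than their spread. Slc1a4 (ASCT1), a carrier of alanine, serine and cysteine, read 6.39 and 3.71 FPKM in the controls against 5.27 and 5.69 in gelADSC, with both gelADSC values between the controls (log2 change 0.13, limma adjusted p = 0.727). Slc1a5 (ASCT2), a glutamine carrier prominent in dividing cells, read 2.91 and 2.30 FPKM against 4.49 and 2.21 FPKM (log2 change 0.22, adjusted p = 0.591). GelADSC library 2 alone was high. The mitosis markers were higher in the other gelADSC library, with 7 genes summing to 1.5 and 2.16 FPKM in the controls and to 10.8 (library 2) and 96.6 FPKM (library 3) in gelADSC. Of the 6 mitosis markers tested, 4 were called higher by limma, against 6.92% of all genes. A link of Slc1a5 to cell division was not tested. The glutamate carriers Slc1a1, Slc1a3, Slc1a6 and Slc1a7 were all under the filter. Slc1a3 (EAAT1) reached 0.262 FPKM in control library 1 and 0.136 FPKM in gelADSC library 2 and no more than 0.0263 FPKM in the other 2.

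Of the Slc36 carriers 2 were tested, both with gelADSC above control and 1 called. Slc36a4 (PAT4), a carrier of proline and tryptophan, rose. It read 1.04 and 0.884 FPKM in the controls against 2.37 and 2.92 in gelADSC. The groups lay well apart with little spread within each. The control mean of 0.960 FPKM was under the filter, which the gene passed only through gelADSC. The mean was 2.76 times that of the controls (log2 change 0.89, SE 0.22, limma adjusted p = 0.0234). With no filter its adjusted p was 0.0657, without control library 1 or 3 it was 0.105 or 0.0708, and without gelADSC library 3 it was 0.0621.

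Slc36a1 (PAT1), which exports small amino acids from lysosomes, read 9.03 and 7.94 FPKM in the controls against 11.4 and 14.1 in gelADSC. Both gelADSC values were above both controls, and the change was not called (log2 change 0.53, 95% interval 0.06 to 0.99, limma adjusted p = 0.0905). It was called once the common shift was removed, with median of ratios scaling (log2 change 0.79, adjusted p = 0.0234) or quantile normalization (0.0220). Slc36a2 had at most 0.0619 FPKM, and Slc36a3 and the opposite strand gene Slc36a1os were listed at 0 in all libraries.

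The Slc43 family split. Slc43a1 (LAT3), a carrier of branched-chain amino acids and phenylalanine, rose. It read 1.48 and 1.95 FPKM in the controls against 2.90 and 5.21 in gelADSC. The gelADSC libraries were above the controls but differed from each other by nearly as much. The mean was 2.37 times that of the controls (log2 change 0.87, SE 0.27, limma adjusted p = 0.0493). This call lay at the threshold and was lost in 7 of 11 alternatives. Among these were median of ratios scaling (limma adjusted p = 0.0562), quantile normalization (0.0652), a pseudocount of 5 (0.0641) and no filter (0.150). The others each left out 1 library, with log2 changes of 0.74 (control library 1), 0.99 (control library 3) and 0.53 (gelADSC library 3). With library sum scaling the call held (0.0434). Slc43a2 (LAT4), a related carrier, read 3.29 and 3.21 FPKM in the controls against 2.57 and 1.61 in gelADSC. Slc43a3, a purine nucleobase carrier and no amino acid transporter, lies beside Slc43a1 and read 20.0 and 13.6 FPKM against 12.5 and 10.8 FPKM. Both were lower without overlap, as were 50.5% of all tested genes, and neither was called (limma adjusted p = 0.165 and 0.163).

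**Figure D4:**
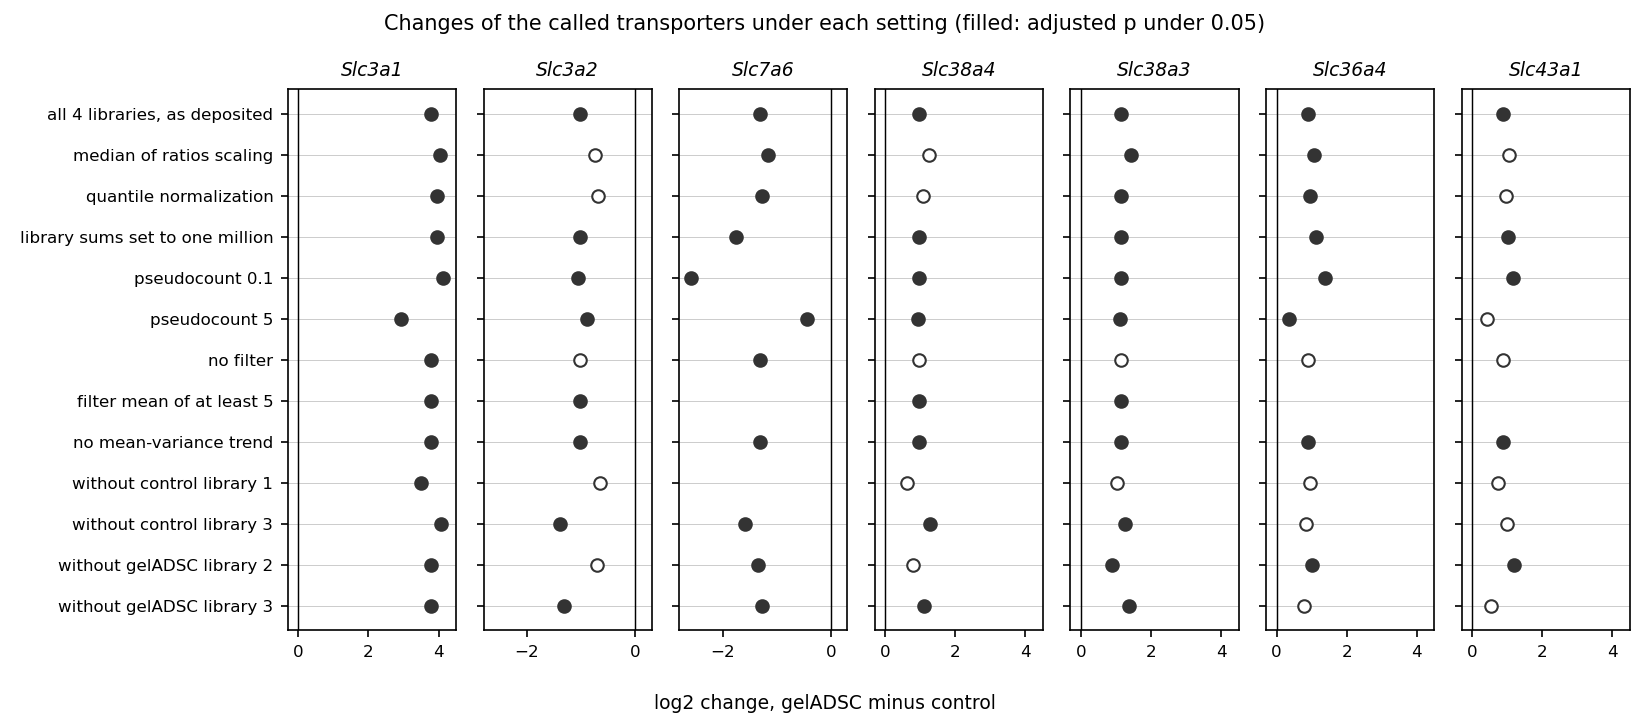
Log2 change of the 7 called transporters, 1 panel per gene, for all 4 libraries as deposited and for 12 alternative settings, filled where the limma adjusted p was under 0.05 and left out where the gene was not tested. Every point keeps its sign, Slc3a1 is filled throughout, and Slc3a2, Slc38a4 and Slc43a1 have the most open points.

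Of the 19 transporters under the filter, 3 were listed at 0 in all libraries, 10 had a mean above 0 and under 0.1 FPKM, and 6 a mean between 0.1 and 0.867 FPKM. Groups did not overlap for Slc38a11 (higher) and for Slc7a1 and Slc7a4 (lower). Among all tested genes, 19.2% were higher and 50.5% lower without overlap. None of these transporters under the filter had a limma adjusted p under 0.05 with no filter, where Slc38a11 had the lowest (0.0945). Ass1, an abundant enzyme of liver, also read at most 0.151 FPKM.

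Other genes of amino acid handling were read from 7 lists, against the same backgrounds of 6.92% higher and 17.5% lower. The backgrounds move with the setting, to 2.76% and 3.01% without control library 1, 4.96% and 15.3% without control library 3, and, of the gelADSC libraries, 6.99% and 10.9% when library 2 and 5.97% and 14.4% when library 3 was left out. Median of ratios scaling gave 8.60% and 8.56%, quantile normalization 8.37% and 9.04%, and the absence of a filter 2.99% and 4.16%. Among amino acid carriers of other families, 1 of 11 tested rose and 3 fell. Slc16a10, an exporter of aromatic amino acids, rose from 4.88 and 4.26 to 10.8 and 11.4 FPKM. Slc6a9, the glycine carrier GLYT1, fell from 76.4 and 37.4 to 11.3 and 13.0 FPKM, and Pqlc2, a lysosomal exporter of cationic amino acids, from 24.4 and 12.6 to 6.97 and 7.37 FPKM. The list had 1 lower gene without control library 1, and likewise with median of ratios scaling, quantile normalization or no filter. Among 12 mitochondrial carriers 1 rose and 1 fell. Slc25a22, a glutamate carrier, fell from 189 and 300 to 69.7 and 93.9 FPKM, and Sfxn2, of the sideroflexin family, rose from 7.61 and 12.6 to 19.4 and 18.1 FPKM. The call of a rise was lost when control library 1 or gelADSC library 2 was left out, with either of those scalings and with no filter, and that of a fall with median of ratios scaling.

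The amino acid response through ATF4, a factor that induces several of these carriers, had 9 of 20 tested genes lower and 0 higher by limma. Of all tested genes, 17.5% were lower and 6.92% higher. At an unadjusted limma p under 0.05 the list had 14 lower and 0 higher, against 29.5% and 10.4% of all tested genes. The median log2 change of the list was -1.08. Psat1, of serine synthesis, fell from 42.8 and 17.4 to 1.10 and 2.05 FPKM (log2 change -3.49, limma adjusted p = 0.00074). Asns, asparagine synthetase, fell from 34.3 and 17.6 to 5.81 and 1.65 FPKM, and Trib3, a pseudokinase, from 17.9 and 5.33 to 0.939 and 1.14 FPKM. Atf4, named outside the rule with its values known, fell from 139 and 86.4 to 61.5 and 58.1 FPKM (adjusted p = 0.0354). In each of these genes control library 1 was the highest. It was also the highest for several carriers, among them Slc3a2, Slc7a5, Slc7a6, Slc7a1, Slc7a7, Slc1a4 and Slc43a3. Slc38a2 was not among them (38.6 and 39.1 FPKM in control libraries 1 and 3), and Slc43a1 was higher in gelADSC. A link of these carriers to ATF4 was not tested. Of the 21 tested transporters, only 6 read higher in control library 3 than in control library 1. Without it 3 of the list were lower, with median of ratios scaling 4 and with no filter 3, beside the smaller backgrounds given for these settings.

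Enzymes of glutamine and glutamate had 5 of 17 tested genes higher and 1 lower, against 6.92% and 17.5% of all tested genes. Glul, glutamine synthetase of central vein hepatocytes, rose from 39.7 and 32.7 to 196 and 227 FPKM. Prodh2 and Prodh, which break down hydroxyproline and proline, rose from 7.98 and 8.33 to 119 and 103 FPKM and from 13.4 and 17.0 to 86.7 and 47.2 FPKM. Gls2, the glutaminase of periportal hepatocytes, likewise named with its values known, rose from 23.4 and 42.5 to 74.7 and 75.4 FPKM (adjusted p = 0.0149), a call lost with median of ratios scaling (0.0574), quantile normalization (0.0520), no filter (0.0761) or control library 1 left out (0.0849). Leaving out control library 1 gave 2 genes called higher. Those called lower were 3, 2 and 4 when control library 3, gelADSC library 2 and gelADSC library 3 were left out in turn.

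Enzymes of arginine and the urea cycle had 3 of 10 tested genes higher and 4 lower, against 6.92% and 17.5% of all tested genes. Gamt, of creatine synthesis, rose from 7.55 and 12.1 to 161 and 127 FPKM. Otc, of the urea cycle, rose from 26.2 and 22.7 to 98.8 and 124 FPKM. Odc1, of polyamine synthesis, fell from 114 and 77.8 to 23.5 and 22.0 FPKM. Arg1, also of the urea cycle and named outside the rule with its values known, fell from 1161 and 1432 to 481 and 542 FPKM (log2 change -1.33, limma adjusted p = 0.00446). Cps1, Asl and Nags were not called. The lower genes numbered 2 without control library 1, 1 with median of ratios scaling and 2 with no filter.

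Of 30 tested genes of mTORC1 and its amino acid sensors, 1 rose and 7 fell, against 6.92% and 17.5% of all tested genes. The median log2 change of the list was -0.19, against -0.25 for all tested genes. Deptor, an mTOR inhibitor, rose from 4.98 and 6.52 to 19.8 and 19.7 FPKM. Sesn2, a leucine sensor, fell from 8.43 and 4.97 to 2.02 and 3.03 FPKM, and Sec13, a GATOR2 and coat protein, from 115 and 90.3 to 47.7 and 58.0 FPKM. The fallen genes numbered 0 when control library 1 or gelADSC library 2 was left out, 3 when gelADSC library 3 was, and 0 with no filter, where the lower background was smaller too. With median of ratios scaling 4 rose and 2 fell. Among 13 tested genes that act on the traffic or turnover of carriers, 0 rose and 5 fell by limma (0 and 6 at an unadjusted p under 0.05). With control library 1 left out 3 fell, and with either gelADSC library left out 1 rose. Sgk1 and Sgk2, kinases that raise carrier activity at the membrane, fell from 19.5 and 28.1 to 7.47 and 9.23 FPKM and from 48.3 and 41.5 to 12.0 and 15.0 FPKM. Nedd4l, a ubiquitin ligase that removes membrane proteins, fell from 18.6 and 16.2 to 5.68 and 8.06 FPKM.

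Markers of the cells in the liver were read beside these values. Of the hepatocyte markers, 7 were in the table, all tested with 0 called by limma (2 higher and 1 lower at an unadjusted p under 0.05). Their sum ran from 51136 to 57728 FPKM in the controls and from 39917 to 61424 FPKM in gelADSC, and Hnf4a, a transcription factor of hepatocytes, had a log2 change of -0.12 (limma adjusted p = 0.686). The 7 central vein markers summed to 527 and 769 FPKM in the controls against 4142 and 3055 in gelADSC (5 higher), most of it Cyp2e1 (304 and 423 FPKM against 3591 and 2542), while Oat had a log2 change of -0.24. The 6 portal markers summed to 323 and 686 FPKM and to 1231 and 1299 FPKM (3 of 5 tested higher, against 6.92% of all genes). These sums were higher beside the higher Slc3a1, Slc38a3 and Slc38a4, and they include Glul and Gls2 of the glutamine list. Bile duct markers, 7 in all, summed to 178 and 319 FPKM and to 63.5 and 55.2 FPKM (2 of 6 tested lower, Spp1 and Sox9, against 17.5% of all genes), beside the lower Slc3a2 and Slc7a6. Between the controls the order differed, with Slc3a2 and Slc7a6 higher in library 1 and the bile duct sum higher in library 3. Spp1 alone made up 150 and 298 FPKM and 52.1 and 43.5 FPKM of these sums, and Epcam and Krt7 had log2 changes of 0.03 and -0.16. Kupffer cell markers (230 to 282 FPKM against 181 to 306 FPKM) and monocyte and neutrophil markers (143 to 154 against 70.3 to 243 FPKM) overlapped. In each, 0 of 7 tested were called by limma, with 2 higher and 1 lower Kupffer cell markers and 1 lower monocyte or neutrophil marker at an unadjusted p under 0.05. The part of these cells in the transporter changes was not tested. Of 7 pancreatic acinar markers, Cpa1, Cpb1 and Pnlip were listed at 0. Markers of stellate cells had 3 of 7 higher, and those of sinusoidal endothelium 2 higher and 1 lower of 7. Of all tested genes, 6.92% were higher and 17.5% lower. Among the stellate markers Lrat, Reln and Rgs5 were called, while Des and Hgf had negative changes (-0.43 and -0.18). Markers of T, B and NK cells had 0 tested. Adipocyte and erythroid markers had 1 tested each, called higher (Adrb3 and Alas2). Adipose stromal markers, of the kind of cell that was given, summed to 65.7 and 49.99 FPKM in the controls against 52.9 and 33.8 in gelADSC. Ly6a made up most of this sum except in gelADSC library 3 (41.5 and 32.3 FPKM against 31.5 and 12.5). Nt5e was the gene called, lower, at 10.05 and 4.47 FPKM against 1.73 and 2.68, and Pdgfra, Dpp4 and Cd34 had positive changes (0.16, 0.41 and 0.65) that were not called.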

How the data were processed

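Liver RNA from 4 samples was sequenced from a stranded library of polyadenylated RNA, per the labels' protocols. The deposited table gives 1 value per gene symbol and library with no unit in its header. It was read as FPKM, as the authors' tool list includes Cufflinks 2.2.1 beside Trimmomatic 0.38 and TopHat2 2.1.1, per the submitters' processing notes, which also name the human build hg19. The annotation and counting are not given. Coordinates are printed only for the RefSeq windows, in their own build, and not for the table's genes. Depth, read from the whole-number steps of low values, was 0.909, 1.22 and 1.01 times that of control library 1 in control library 3 and gelADSC libraries 2 and 3. All 838 genes with values above 0 and under 0.2 FPKM in the 4 libraries were whole multiples within 0.03 fragments, with a wider allowance for large numbers. Fragment numbers are the fewest that fit, and their true depth is unknown.

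Genes averaging 1 FPKM or more were fitted with limma 3.58.1 in R 4.3.3 (mean-variance trend, two-sided, Benjamini-Hochberg over 11070 genes, threshold 0.05) on log2(FPKM + 1), checked on simulated data. An exact permutation test of 2 against 2 cannot go below 0.333. Every tested member is given, and from each related list up to 3 called genes with the largest change. Members, lists and motifs were chosen with earlier results of these data known, so lists have no test. All 42 symbols matched RefSeq.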

Additional observations from a re-analysis of the deposited data

How the results depend on the processing

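Of 241 comparisons of a tested transporter with its value under an alternative, 205 kept direction and side of the threshold, 23 lost and 3 gained a call, and 10 turned sign, none of them of a called gene. The number of transporters called higher was 1 with no filter and 3 with a filter at 5 FPKM, which tested 37 and 11 of them, and the number called lower was 1 with median of ratios scaling, quantile normalization, no filter or a filter at 5 FPKM. With 1 library left out the higher calls ran from 1 to 4, the lower calls from 0 to 3, and the called genes of the 7 lists (41 of 112) from 18 to 44. The lists had 26 called genes with median of ratios scaling and 21 with no filter. Signs turned for Slc7a2 (0.28, 0.27 and 0.0106 with median of ratios, quantile and library sum scaling, and from -0.41 to 0.39 with 1 library left out, positive without control library 3, at 0.39, and gelADSC library 2, at 0.24), Slc38a6 (0.0469) and Slc38a7 (0.0088) with median of ratios scaling, Slc38a7 (0.0058) with quantile normalization, the opposite strand gene Slc7a6os, not counted above (0.0081 and 0.0383 with these scalings), Slc1a4 (-0.19 without control library 3, range to 0.46) and Slc1a5 (-0.16 without gelADSC library 2, range to 0.61). With no filter and with fewer libraries the set of genes or samples itself differs, and other causes were not tested. With a library left out, the lone sample is assumed to vary like the other group. No paired analysis was possible because the columns of the 2 groups share only the number 3, and these numbers do not match the sample titles, which run 1 and 2 in each group.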
